A study of Homo sapiens with 8 samples.

Results

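Kruppel-like factors (KLF proteins) are transcription factors that bind CACCC boxes and GC-rich sites in DNA through a shared array of zinc fingers at their carboxyl end. Their amino-terminal parts differ and sort them into proteins that mostly activate transcription, proteins that recruit the corepressor CtBP, and proteins that recruit the corepressor Sin3A. In lymphocytes they are known for holding resting cells out of division and for controlling migration, and KLF9 is a known target of glucocorticoid hormones in several tissues. The 10 genes described here are KLF2, KLF4, KLF5, KLF6 and KLF7 of the activating kind, KLF3 of the CtBP kind, and KLF9, KLF10, KLF11 and KLF13 of the Sin3A kind. They were taken by symbol from the array annotation. Each of the 10 had a single row, so 10 of 17881 transcript clusters were described and none had to be chosen between rows. The cluster of KLF11 is annotated KLF11 and CYS1, and its values cannot be assigned to either gene alone.

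Expression was measured on 8 Affymetrix Human Exon arrays of cells labelled RS4;11, an established leukemia line of the B-precursor kind that carries an MLL fusion. The cells had been transduced with an shRNA against BTG1, an antiproliferative cofactor, or with a control shRNA, and were exposed for 8 h to prednisolone, a synthetic glucocorticoid, or to vehicle. The 4 groups, with 2 arrays each, were BTG1 shRNA with prednisolone, BTG1 shRNA with vehicle, control shRNA with prednisolone and control shRNA with vehicle. The question of the series is how knockdown of BTG1 changes the response to the glucocorticoid. Whether the duplicate arrays stem from separate cultures, and how many shRNA sequences or clones were used, is not given in the labels. The p-values therefore reflect array-to-array spread that could be technical.

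All levels below are on the log2 scale, and differences are log2 differences from a linear model over all arrays (limma) with its standard error (SE) and a Benjamini-Hochberg adjusted p over all 17881 clusters. A difference was called at an adjusted p below 0.05. Levels are compared between arrays and not between genes, because probes differ in brightness. The position of a value among all clusters of its array is given as a percentile to show which clusters were dim. No detection call was used, so the level of dim clusters above background is unknown.

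The arrays labelled BTG1 shRNA stood apart from the control arrays in lineage. The mean level of 12 T-lineage markers lay between 8.20 and 8.43 under the BTG1 shRNA label and between 4.07 and 4.67 under control shRNA. Under vehicle 9 of 12 were called higher, against 8.46% of all clusters, and CD2, CD4 and CD8A were not called. For 10 B-lineage markers the mean level lay between 3.79 and 4.21 under the BTG1 shRNA label and between 8.16 and 8.77 under control shRNA. Of these, 9 of 10 were called lower under vehicle, against 6.21% of all clusters. The label RS4;11 therefore fits the control arrays in these markers and not the others, and the shRNA and the lineage cannot be told apart in any comparison between them. The cluster annotated BTG1 and LINC01619 had means of 7.97 with prednisolone and 7.29 with vehicle under BTG1 shRNA, against 10.61 and 9.35 under control shRNA, and was lower on every array labelled BTG1 shRNA than on any control array. NR3C1, the glucocorticoid receptor gene, had a mean of 7.25 with prednisolone and 7.45 with vehicle under BTG1 shRNA, against 10.76 and 9.98 under control shRNA. Values were the least spread on the first control vehicle array (interquartile range 2.95, all others 3.39 to 3.80). In bulk RNA fewer expressing cells and less RNA per cell cannot be told apart.

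Promoter sequence is shown for KLF7, KLF9 and KLF6, the genes with the smallest p-values among those higher with prednisolone on the control arrays. RefSeq (GRCh38.p14) windows of the 250 bases before an annotated start were found for 8 of the 10 genes, in 13 windows. KLF3 and KLF10 had none. The windows are on the minus strand and are printed 5′ to 3′. For KLF7, which has 4 annotated starts, the window before the most upstream start is printed. Capitals mark CACCC, the box that KLF proteins bind, GGGCGG, the GC box that KLF and SP proteins bind, and AGAACA, a hexamer of the glucocorticoid receptor element, each on either strand.
KLF7 chr2:207167247-207167496: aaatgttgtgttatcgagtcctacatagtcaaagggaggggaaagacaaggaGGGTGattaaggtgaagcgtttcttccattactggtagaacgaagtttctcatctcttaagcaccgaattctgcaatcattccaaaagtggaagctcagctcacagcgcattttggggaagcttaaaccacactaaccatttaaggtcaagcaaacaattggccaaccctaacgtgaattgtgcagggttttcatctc
KLF9 chr9:70414658-70414907: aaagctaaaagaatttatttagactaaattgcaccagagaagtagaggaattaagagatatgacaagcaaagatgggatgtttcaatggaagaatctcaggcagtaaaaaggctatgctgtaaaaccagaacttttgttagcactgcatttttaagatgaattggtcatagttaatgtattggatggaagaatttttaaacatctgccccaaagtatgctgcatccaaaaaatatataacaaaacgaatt
KLF6 chr10:3785210-3785459: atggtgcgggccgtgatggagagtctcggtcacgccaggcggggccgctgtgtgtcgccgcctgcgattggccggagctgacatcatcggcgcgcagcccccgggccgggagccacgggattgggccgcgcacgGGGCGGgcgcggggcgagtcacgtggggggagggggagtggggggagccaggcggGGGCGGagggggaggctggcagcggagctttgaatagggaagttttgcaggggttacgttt

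The printed windows differ. The KLF7 window held 1 CACCC box and the KLF6 window 2 GC boxes, and no listed motif was found in the KLF9 window. Over all windows of the 8 genes, GGGCGG occurred in 8 of 13, against 42.6% of 35116 windows of RefSeq starts. CACCC occurred in 6 of 13, against 54.7% of all windows. AGAACA occurred in 2 of 13, 1 window each of KLF5 and KLF7, against 12.4% of all windows. The forkhead core TGTTTAC was in 0 of 13, against 2.98% of all windows. These are matches of letters in short windows, and an absent match says nothing of sites elsewhere.

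The first comparison was prednisolone against vehicle in control shRNA cells. KLF7, a broadly expressed activator that in mice is needed for axon growth, was raised strongly, and it was the only one of the 10 genes called. This was 1 of 10, against 1.52% of all clusters called, 0.928% higher and 0.587% lower. KLF7 read 7.12 and 7.44 on the control prednisolone arrays and 4.85 and 4.65 on the control vehicle arrays. Both prednisolone arrays lay more than 2 log2 units above both vehicle arrays. The means were 7.28 ± 0.225 with prednisolone and 4.75 ± 0.138 with vehicle (SD, n = 2 arrays each), a difference of 2.53 (SE 0.19, 5.78-fold, limma adjusted p = 0.00269). Within the arrays KLF7 lay at percentiles 74.9 to 77.7 with prednisolone and 39.6 to 42.1 with vehicle. The rise was the 37th largest and its p-value the 11th smallest of all 17881 clusters. Leaving out any 1 array left the call standing, with differences of 2.37 to 2.69 and adjusted p from 0.00741 to 0.0383.

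**Figure D1:**
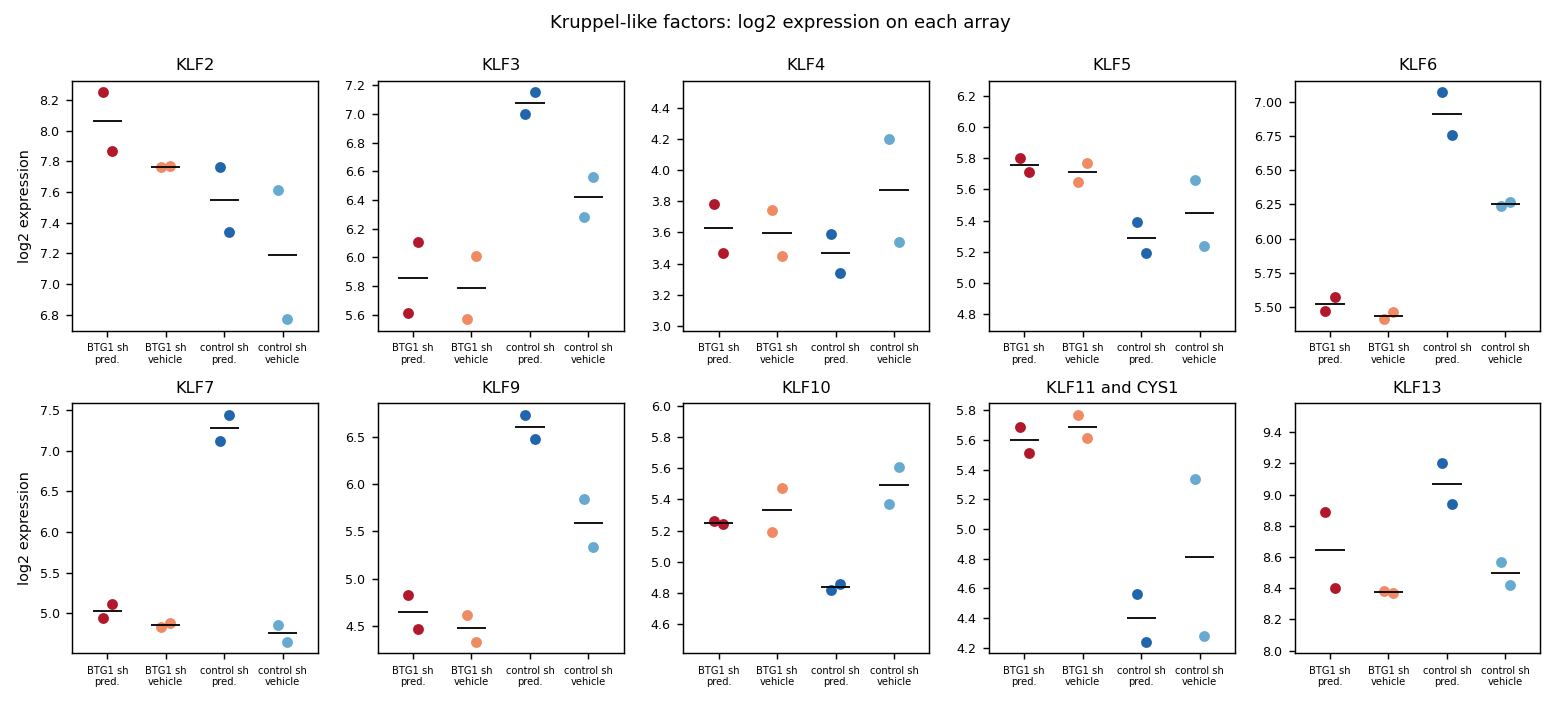
Log2 expression (vertical axis, each panel with its own range) of the 10 Kruppel-like factor clusters on each array, by group; points are arrays and lines are means of 2. KLF7 stands at 7.12 and 7.44 on the control prednisolone arrays and between 4.65 and 5.11 on the other 6 arrays. KLF9, KLF6 and KLF3 are lower on all 4 arrays labelled BTG1 shRNA than on any control array, and the KLF11 and CYS1 cluster is higher.

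KLF9, a Sin3A-recruiting repressor and known glucocorticoid target, came next in size without passing the test. It read 6.74 and 6.48 on the control prednisolone arrays against 5.85 and 5.33 on the control vehicle arrays. The groups did not overlap, and the difference was 1.01 (SE 0.25, 2.02-fold, limma adjusted p = 0.117). With each array centred on its median it was 1.14 and passed (adjusted p = 0.0426). Without 1 array the difference ran from 0.75 to 1.27, so it did not stay past 2-fold in every fit. With all arrays, KLF7 and KLF9 were past the 2-fold selection stated in the design of the series. This was 2 of 10 higher, against 3.86% of all clusters higher by that much. KLF6, a widely expressed activator studied as a tumour suppressor, read 7.07 and 6.76 with prednisolone against 6.24 and 6.27 with vehicle, a difference of 0.66 (SE 0.18, adjusted p = 0.152).

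KLF3, the CtBP-recruiting repressor, read 7.0 and 7.15 on the control prednisolone arrays and 6.28 and 6.56 on the control vehicle arrays, a difference of 0.66 (SE 0.25, adjusted p = 0.299). KLF13, which in T lymphocytes activates the chemokine gene CCL5, read 9.20 and 8.94 with prednisolone and 8.57 and 8.42 with vehicle, a difference of 0.57 (SE 0.22, adjusted p = 0.304). KLF10, a gene induced early by TGF-beta, was the only one of the 10 with both prednisolone arrays below both vehicle arrays. It read 4.82 and 4.86 with prednisolone and 5.37 and 5.61 with vehicle, a difference of -0.65 (SE 0.18, adjusted p = 0.173). In all, 5 of 10 clusters were higher without overlap and 1 lower, against 15.3% higher and 26.4% lower over all clusters.

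For the remaining 4 genes the control arrays of both treatments overlapped. KLF2, which maintains quiescence and trafficking of naive T cells in mice, read 7.76 and 7.34 with prednisolone and 7.61 and 6.77 with vehicle, and its 95% interval for the difference ran from -0.36 to 1.07. KLF11, a relative of KLF10, had with CYS1 an interval of -1.18 to 0.37. For KLF4, known from reprogramming to pluripotency, it was -1.02 to 0.21. For KLF5, an activator of epithelial proliferation, it was -0.63 to 0.31. KLF4 lay at percentiles 20.8 to 28.2 on the 8 arrays. The median difference of the 10 genes was 0.46, against -0.16 over all clusters. Quantile normalization moved the median over all clusters to -0.05.

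In the arrays labelled BTG1 shRNA the same exposure gave 0 calls among the 10 genes and 0% of all clusters. At an unadjusted p below 0.05, limma gave 0 of the 10 and 186 of 17881 clusters, and the replicate block, normalization and other settings tried also gave 0 adjusted calls. KLF7 read 4.94 and 5.11 with prednisolone and 4.83 and 4.88 with vehicle, a difference of 0.17 with a 95% interval of -0.27 to 0.61. The prednisolone arrays were the higher ones, by much less than on the control arrays. KLF9 read 4.82 and 4.46 with prednisolone and 4.61 and 4.33 with vehicle, so the groups overlapped (0.17, interval -0.41 to 0.75). KLF13 had the interval -0.24 to 0.77 and KLF2 that of -0.42 to 1.01. Over the 10 genes the differences ran from -0.09 to 0.30, and 4 were higher without overlap and 0 lower, against 18% and 10.5% of all clusters.

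**Figure D2:**
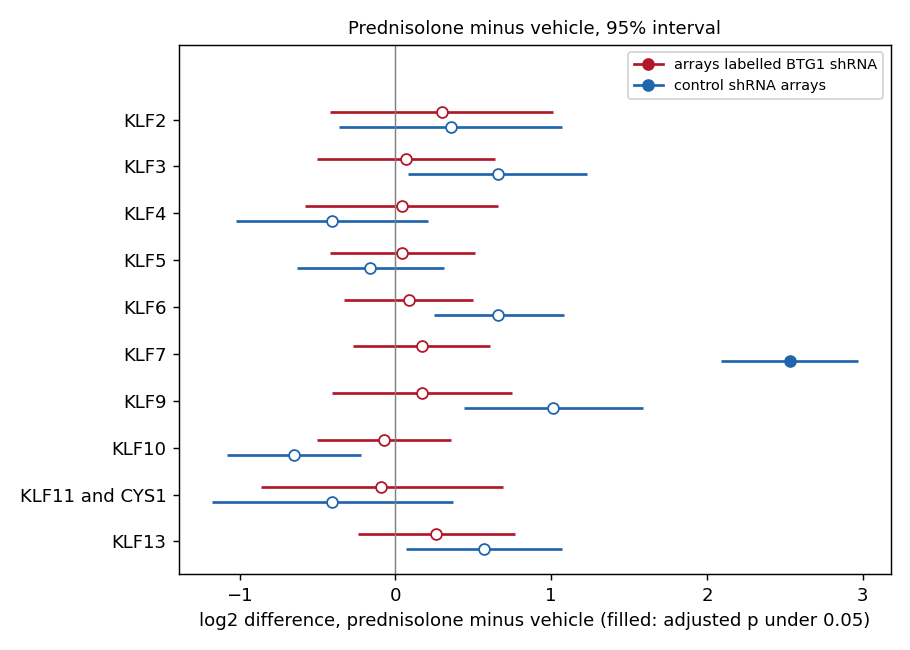
Log2 difference of prednisolone minus vehicle (horizontal axis) for each Kruppel-like factor cluster, with 95% intervals from the linear model, on the arrays labelled BTG1 shRNA (red, upper) and the control shRNA arrays (blue, lower); filled points passed an adjusted p of 0.05. KLF7 on the control arrays, at 2.53, is the only filled point, and the differences on the arrays labelled BTG1 shRNA lie between -0.09 and 0.30.

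The difference between both prednisolone effects was tested directly. It was called for KLF7, 1 of 10 genes against 0.134% of all clusters (0.028% higher, 0.106% lower), at -2.36 (SE 0.27, limma adjusted p = 0.0417), the effect being smaller on the arrays labelled BTG1 shRNA. The call was narrow. It was lost without any 1 of 7 arrays and kept without the first control vehicle array, with adjusted p from 0.0496 to 0.338, while the size stayed between -2.52 and -2.20. It was also lost with centred arrays (-2.53, adjusted p = 0.052) and when clusters with a value starting with 1 were left out (adjusted p = 0.0564). For KLF9 the difference was -0.84 (interval -1.66 to -0.03, adjusted p = 0.536), for KLF3 -0.59 (adjusted p = 0.546) and for KLF6 -0.58 (adjusted p = 0.537). For KLF10 it was 0.57 (adjusted p = 0.537). NR3C1 and the lineage markers differ between the arrays compared, as given above, and their part in these differences was not tested.

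BTG1 shRNA was then compared with control shRNA under vehicle, using the vehicle arrays that also serve the prednisolone comparisons. KLF9 and KLF6 were called lower under the BTG1 shRNA label, and 0 genes were called higher. This was 2 of 10, against 14.7% of all clusters called, 8.46% higher and 6.21% lower. KLF9 read 4.61 and 4.33 on the vehicle arrays labelled BTG1 shRNA and 5.85 and 5.33 on the control vehicle arrays, a difference of -1.12 (SE 0.25, limma adjusted p = 0.0208). All KLF9 values under BTG1 shRNA lay below both control values. KLF6 read 5.41 and 5.46 against 6.24 and 6.27, a difference of -0.82 (SE 0.18, adjusted p = 0.0196). Both replicate pairs were tight for KLF6, with SDs of 0.0304 and 0.0243. Both calls were lost without either BTG1 shRNA vehicle array and when only the vehicle arrays were fitted, that for KLF9 also without the first control vehicle array (-0.86, adjusted p = 0.0765), and that for KLF6 with a trended robust prior (adjusted p = 0.0637).

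KLF3 read 5.57 and 6.01 on the vehicle arrays with BTG1 shRNA and 6.28 and 6.56 on the control vehicle arrays, lower without overlap at -0.63 (SE 0.25, adjusted p = 0.146). The KLF11 and CYS1 cluster read 5.77 and 5.61 against 5.34 and 4.28, higher without overlap at 0.88 (SE 0.33, adjusted p = 0.134). The 2 control vehicle arrays differ by over 1 log2 unit here. Without the first of them the difference was 1.41, and over all fits without 1 array it ran from 0.35 to 1.41. KLF2 read 7.76 and 7.77 against 7.61 and 6.77 (0.57, SE 0.31, adjusted p = 0.256). KLF7 overlapped under vehicle, where BTG1 shRNA gave 4.83 and 4.88 and control shRNA 4.85 and 4.65, with an interval of -0.34 to 0.55. KLF13, KLF10, KLF4 and KLF5 had differences of -0.12, -0.16, -0.28 and 0.27, and only the KLF13 values, at 8.38 and 8.37 against 8.57 and 8.42, did not overlap. In all 2 genes were higher and 4 lower without overlap, against 24.5% and 34.3% of all clusters.

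Under prednisolone, a difference between BTG1 shRNA and control shRNA was called for 5 of the 10 genes. This compares with 17.5% of all clusters, 10% higher and 7.51% lower. KLF7, KLF9, KLF6 and KLF3 were lower under the BTG1 shRNA label and the KLF11 and CYS1 cluster was higher. KLF7 read 4.94 and 5.11 on the BTG1 shRNA prednisolone arrays and 7.12 and 7.44 on the control prednisolone arrays, a difference of -2.26 (SE 0.19, 4.78-fold, limma adjusted p = 0.000184). KLF9 read 4.82 and 4.46 against 6.74 and 6.48, a difference of -1.97 (SE 0.25, adjusted p = 0.00131). These were wide gaps beside replicate SDs of 0.116 to 0.254, and the KLF7, KLF9 and KLF6 calls held without any 1 array. KLF6 read 5.47 and 5.57 against 7.07 and 6.76, a difference of -1.40 (SE 0.18, adjusted p = 0.0014).

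KLF3 read 5.61 and 6.11 on the BTG1 shRNA prednisolone arrays and 7.0 and 7.15 on the control prednisolone arrays, a difference of -1.22 (SE 0.25, adjusted p = 0.0123). The KLF11 and CYS1 cluster read 5.69 and 5.51 against 4.56 and 4.24, a difference of 1.20 (SE 0.33, adjusted p = 0.0449). The KLF3 call was lost without the second control prednisolone array or the first BTG1 shRNA prednisolone array (adjusted p = 0.087 and 0.0897). The KLF11 call was lost without any 1 array other than a control vehicle array (adjusted p = 0.0755 to 0.236). Of the others, KLF5 stood at 0.47 (adjusted p = 0.182), KLF10 at 0.41 (adjusted p = 0.199), KLF2 at 0.51 (adjusted p = 0.376) and KLF13 at -0.43 (adjusted p = 0.272). All 4 had no overlap between arrays, and KLF4 overlapped (0.16, interval -0.46 to 0.78). That made 4 genes higher and 5 lower without overlap, against 28.4% and 21.5% of all clusters. Markers of lineage moved with these differences, as given above, and their part was not tested.

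**Figure D3:**
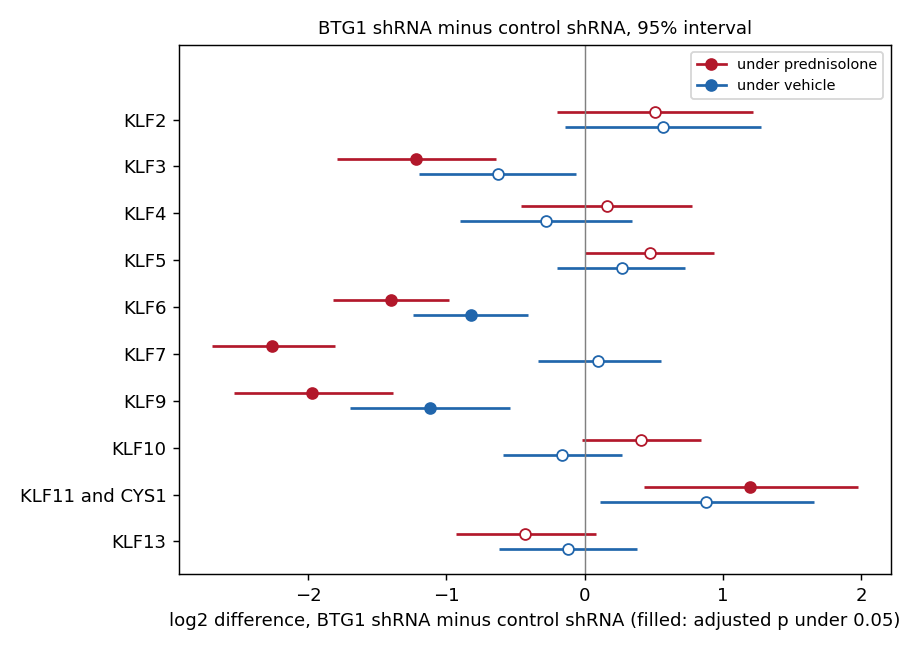
Log2 difference of BTG1 shRNA minus control shRNA (horizontal axis) for each Kruppel-like factor cluster, with 95% intervals from the linear model, under prednisolone (red, upper) and under vehicle (blue, lower); filled points passed an adjusted p of 0.05. The intervals of KLF9, KLF6 and KLF3 lie below 0 with both treatments, and that of the KLF11 and CYS1 cluster above 0. KLF3 and the KLF11 and CYS1 cluster are not filled under vehicle. KLF7 stands at -2.26 under prednisolone and 0.10 under vehicle.

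The relatives outside the 10 were examined as a list. Of 8 further KLF genes 7 had a cluster. With prednisolone on the control arrays 0 were called higher and 1 lower, against 0.928% and 0.587% of all clusters. Their median was -0.29 against -0.16 over all clusters. The one called lower was KLF16, a Sin3A-recruiting repressor. It read 6.96 and 6.43 on the control prednisolone arrays and 8.65 and 8.06 on the control vehicle arrays, a difference of -1.66 (SE 0.28, limma adjusted p = 0.0345), opposite to the direction of KLF7. This call was lost without any 1 array but the second control vehicle array (adjusted p = 0.0607 to 0.301) and after quantile normalization (adjusted p = 0.084). KLF12, a CtBP-recruiting repressor related to KLF3, was higher under the BTG1 shRNA label. Its vehicle arrays gave 7.99 and 8.31 under BTG1 shRNA, against 6.16 and 6.72 under control shRNA (1.71, SE 0.23, adjusted p = 0.00216), and under prednisolone the difference was 1.29 (adjusted p = 0.00716). KLF3 and KLF12 thus differed in opposite directions under prednisolone. The KLF12 call under prednisolone was lost without the second array of either prednisolone group (adjusted p = 0.0561 and 0.0512). SP genes encode zinc fingers that resemble those of KLF proteins. Of 9 such genes, 0 were called with prednisolone on the control arrays, against 1.52% of all clusters. With vehicle, SP4 alone of them was called higher under the BTG1 shRNA label (1.73, SE 0.30, limma adjusted p = 0.00758). Without the first BTG1 shRNA vehicle array the SP4 difference was 1.56 and the call was lost. Between the prednisolone arrays, KLF16 was higher under BTG1 shRNA than under control shRNA (1.26, SE 0.28, adjusted p = 0.0175). This call was lost without the second control or first BTG1 shRNA prednisolone array (adjusted p = 0.127 and 0.117) and after quantile normalization (adjusted p = 0.0594).

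Among 9 regulators of KLF genes and proteins, FBXW7 alone was called with prednisolone on the control arrays, against 1.52% of all clusters. The median of the 9 was 0.52 against -0.16 over all clusters, so others were higher without a call. FBXW7 encodes the substrate receptor of a ubiquitin ligase that marks KLF2 and KLF5 protein for degradation. FBXW7 read 7.54 and 8.57 on the control prednisolone arrays and 4.91 and 5.24 on the control vehicle arrays, a difference of 2.98 (SE 0.33, limma adjusted p = 0.00822). On the arrays labelled BTG1 shRNA it read 5.13 and 5.47 with prednisolone and 5.60 and 5.63 with vehicle. With only the control arrays fitted the call was lost (adjusted p = 0.0578). Under vehicle 1 of the 9 regulators was called higher and 4 lower under the BTG1 shRNA label, against 8.46% and 6.21% of all clusters. The median of the 9 was 0.17 against -0.15. The MEF2 factors MEF2C (-6.29, SE 0.22) and MEF2D (-1.72, SE 0.21), which act upstream of KLF2 and KLF4, were among those lower, as was FOXO1 (-1.13, SE 0.17, lost without the second BTG1 shRNA vehicle array at adjusted p = 0.0506), which activates KLF2 in T cells. The remaining calls, named after their values were seen, were MAPK7, a kinase upstream of MEF2, at 0.92 and the cluster of MEF2A and LYSMD4 at -1.16. Under prednisolone 1 regulator was called higher and 5 lower, against 10% and 7.51% of all clusters, with a median of -0.94 against 0.04. MEF2C stood at -6.26 (SE 0.22), the cluster of MEF2A and LYSMD4 at -2.52 (SE 0.29) and FBXW7 at -2.76 (SE 0.33), and the others called were MAPK7, higher, and FOXO1 and MEF2D, lower. MEF2C is also a gene of the B lineage and of MLL-fusion leukemia.

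Of 13 cofactors 12 had a cluster, and 0 were called with prednisolone on the control arrays, against 1.52% of all clusters. Their median was 0.26 against -0.16. HDAC1, a deacetylase of the Sin3A complex, was higher under the BTG1 shRNA label, by 1.56 under vehicle (SE 0.25, adjusted p = 0.00554). Under prednisolone 1 cofactor was called higher and 3 lower, against 10% and 7.51% of all clusters. The higher one was again HDAC1 (1.20, SE 0.25, adjusted p = 0.0156), a call lost with centred arrays, without the first control prednisolone array and without the second BTG1 shRNA prednisolone array (adjusted p = 0.0722, 0.0839 and 0.103). Among the lower ones were the acetyltransferase CREBBP (-1.05, SE 0.20, adjusted p = 0.00927) and SAP30 of the Sin3A complex (-1.33, SE 0.29, adjusted p = 0.0169). The third was the acetyltransferase KAT2B (-1.10, SE 0.29, adjusted p = 0.0389), named after its value was seen. With prednisolone on the control arrays CREBBP, SAP30 and KAT2B stood at 0.42, 0.79 and 1.01, uncalled (limma adjusted p = 0.398, 0.287 and 0.179). The CREBBP call was lost without the first array of either prednisolone group, and the SAP30 call without the second array of either (adjusted p = 0.066 to 0.124). Quantile normalization also ended the SAP30 call (adjusted p = 0.051).

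Genes known as KLF targets were set beside these values. Of the 10 such genes read here, 0 were called with prednisolone on the control arrays, against 1.52% of all clusters (median -0.30 against -0.16). Under vehicle 1 was called higher and 2 lower under the BTG1 shRNA label, against 8.46% and 6.21% of all clusters. The other targets were not called there. S1PR1, the sphingosine phosphate receptor that KLF2 activates in mouse T cells, was higher under the BTG1 shRNA label, with 6.62 and 6.32 under BTG1 shRNA and vehicle, against 3.62 and 3.27 under control shRNA (3.03, SE 0.22, adjusted p = 0.000111). Its lowest value lay at percentile 12.5 of its array, and S1PR1 is also a gene of T lymphocytes. CDKN1A, a cell cycle inhibitor activated by KLF4 and KLF6, was lower, at 5.27 and 5.03 against 7.61 and 7.42 (-2.36, SE 0.22, adjusted p = 0.000353). CCL5 was lower under vehicle by -1.04 (SE 0.26, adjusted p = 0.0331), a call lost without any 1 of 6 arrays (adjusted p up to 0.238).

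**Figure D4:**
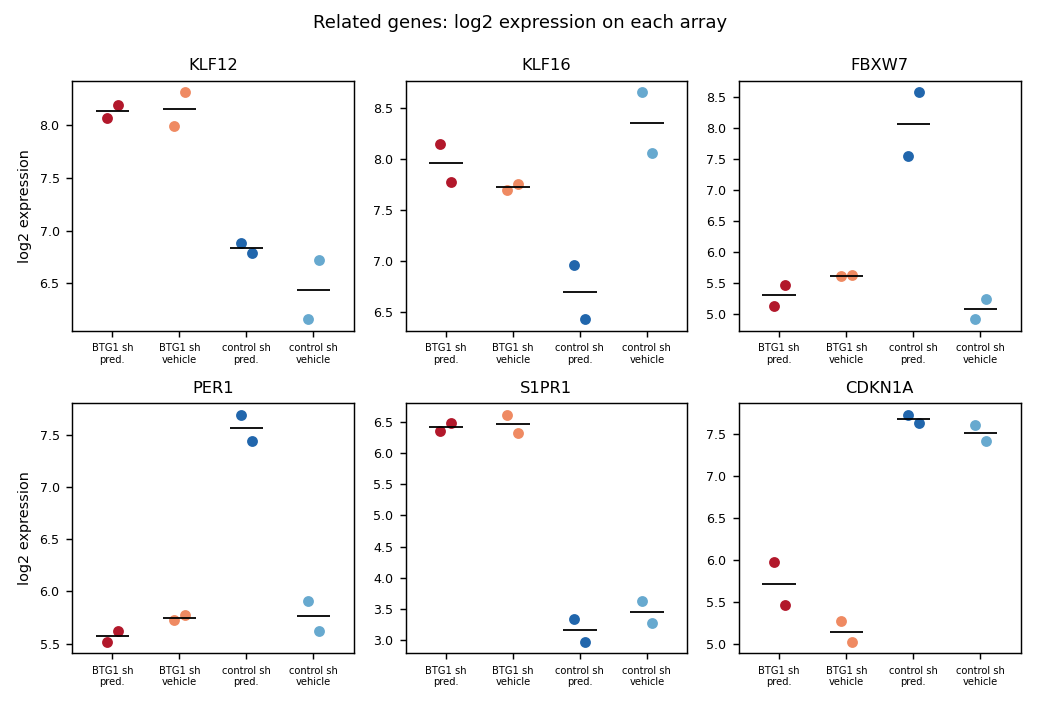
Log2 expression (vertical axis, each panel with its own range) of KLF12, KLF16, FBXW7, PER1, S1PR1 and CDKN1A on each array, by group; points are arrays and lines are means of 2. FBXW7 and PER1 are highest on the control prednisolone arrays, KLF16 is lowest there, and KLF12 and S1PR1 are higher on all arrays labelled BTG1 shRNA than on any control array.

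Known glucocorticoid targets give the scale of the response on the control arrays. Of 6 such genes 4 were called higher, against 0.928% of all clusters, with a median of 2.24 against -0.16 over all clusters. The circadian gene PER1 rose by 1.80 (SE 0.19, limma adjusted p = 0.00661), the leucine zipper gene TSC22D3 by 2.67 (SE 0.17, adjusted p = 0.00118) and the kinase gene SGK1 by 4.64 (SE 0.23, adjusted p = 0.000567). The cluster of the co-chaperone gene FKBP5, shared with LOC285847, rose by 2.70 (SE 0.35, adjusted p = 0.0134), a call that leaving out the second control prednisolone array ended (adjusted p = 0.13), as it did that of PER1 (adjusted p = 0.0535). With only the control arrays fitted both were lost too (adjusted p = 0.0736 and 0.0759). The other two were not called there: the transcription factor gene ZBTB16 stood at 0.74 (SE 0.30, adjusted p = 0.337) and the phosphatase gene DUSP1 at -0.17 (SE 0.16, adjusted p = 0.548). Between shRNAs under vehicle, ZBTB16 was higher (2.96, SE 0.30, adjusted p = 0.000537) and DUSP1 lower (-1.71, SE 0.16, adjusted p = 0.000389) under the BTG1 shRNA label. TSC22D3 was lower there as well (-2.57, SE 0.17, limma adjusted p = 6.51e-05). Its vehicle means were 4.23 under BTG1 shRNA and 6.8 under control shRNA. With prednisolone on the arrays labelled BTG1 shRNA 0 of the 6 were called, with a median of 0.21. TSC22D3 came nearest, at 0.99 (SE 0.17, limma adjusted p = 1), and had the 5th smallest p-value of all clusters there. The difference of effects was called for SGK1 alone of the 6 (-4.42, SE 0.33, adjusted p = 0.00862). Without 1 array it ran from -4.71 to -4.12, and the call was lost in 5 of these fits. Between shRNAs under prednisolone 1 of the 6 was called higher and 5 lower, against 10% and 7.51% of all clusters. Among the lower ones were SGK1 (-4.72, SE 0.23), TSC22D3 (-4.25, SE 0.17), PER1 (-1.99, SE 0.19) and the FKBP5 cluster (-2.04, SE 0.35).

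The clusters most like each gene were found by Pearson correlation over the 8 arrays, as a description only. KLF7 was most like TCP11L2 (r = 0.998), SGK1 (0.993) and CLIC5 (0.990), and 48 clusters exceeded 0.95 with it. TCP11L2 differed by 1.85 and CLIC5 by 2.60 with prednisolone on the control arrays. KLF9 was most like GADD45B (0.998), RHBDF2 (0.995) and ENPEP (0.994), among 111 clusters over 0.95. These differed by 0.93, 1.22 and 0.16 in the same comparison, so a high correlation did not mean a difference of like size. For KLF6 the most alike were TSPAN14 (0.995), ZNF425 and HLA-F (0.993 each). For KLF3 they were CREM (0.989), PMAIP1 (0.986) and TRAFD1 (0.983), which differed by 0.11, 1.4 and 0.52 with prednisolone on the control arrays. KLF2 and KLF13 had few such neighbours, with 1 and 3 clusters over 0.95, and KLF4 had 587.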

How the data were processed

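The 8 exon arrays were hybridised with total RNA, and probes were summarised over core meta-probe sets of hg18, per the labels. The submitters' processing notes name RMA and Partek without versions. The log2 values of the deposited table had lost nearly all decimal points: only 153 of 143048 kept theirs. Points were restored to follow the leading digit, or the leading pair of digits in the 2831 values that begin with 1. Correlations between arrays were 0.872 to 0.995 afterwards and 0.446 to 0.587 before. A plain log2 table had been assumed in planning, and the planned tests were kept. Neither normalization nor a filter was added, and 0 columns went unused. By the platform annotation 14432 clusters have 1 symbol, 2408 several and 1041 none.

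Group means were fitted over the 8 arrays in R 4.3.3 using limma 3.58.1, by lmFit and eBayes. The residual degrees of freedom were 4 and the prior ones 3.51. From this model 5 contrasts were tested, each adjusted by Benjamini-Hochberg over 17881 clusters at 0.05. The code was tested on simulated data. The small number of arrays limits the precision. The members and gene lists were chosen with earlier results of these data known. All 10 members are named, and from each further list up to 3 called genes with the smallest p per contrast, with S1PR1, CCL5, FKBP5 and TSC22D3 always considered. Of the genes that this rule always names, 1 is not reported here. For each member the 3 clusters of 1 symbol with the highest correlation were taken. Alternatives were a replicate block, quantile normalization, median centring, a filter on dim clusters, a trended robust prior, fits on the compared groups only, clusters without values starting with 1, and leaving out each array. Markers of other cell types were read under vehicle, BTG1 shRNA against control shRNA. Of 4 myeloid markers CSF1R was lower (-1.20), of 5 stromal and epithelial markers KRT18 was higher (1.38), and 0 of 2 erythroid and platelet markers were called at an adjusted p under 0.05 in limma.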

Additional observations from a re-analysis of the deposited data

Results flagged for a closer look

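The effect of prednisolone on KLF7 differed between the arrays labelled BTG1 shRNA and the control arrays. The test of the difference itself gave -2.36 (limma adjusted p = 0.0417), a narrow call. It was lost with centred arrays (adjusted p = 0.052) and without clusters with a value starting with 1 (adjusted p = 0.0564). The effects were 0.17 on the arrays labelled BTG1 shRNA and 2.53 on the control arrays, both with no overlap between treatments.

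KLF16 moved in opposite directions without overlap, 0.23 on the arrays labelled BTG1 shRNA and -1.66 on the control arrays. The difference was 1.90 (SE 0.39) and did not pass its own test (limma adjusted p = 0.193). The lineage of the arrays and the shRNA cannot be told apart in either case.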

How the results depend on the processing

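Each group holds 2 arrays, and how far dim clusters such as KLF4 lie above background is unknown. For prednisolone on the control arrays the 1 called member became 2 with the replicate block and 2 with centred arrays, KLF9 being added in both (adjusted p = 0.0188 and 0.0426). Between shRNAs under vehicle, the 2 called members became 4 with the replicate block (KLF3 and KLF11 added, adjusted p = 0.0285 and 0.0379), 1 with a trended robust prior and 0 with only the vehicle arrays fitted. For the difference of effects the 1 called member became 0 with centred arrays and 0 without clusters with a value starting with 1. Leaving out 1 array gave 0 to 2 called members for the shRNA contrast under vehicle, 3 to 5 under prednisolone and 0 to 1 for the difference of effects, while the prednisolone contrasts kept 1 and 0.

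Over all clusters, 271 calls with prednisolone on the control arrays became 755 with the replicate block, 16 with only the control arrays fitted and 40 to 770 without 1 array. The 2623 calls of the shRNA contrast under vehicle became 4553 with the replicate block and 1289 to 5958 without 1 array, and the 3134 under prednisolone 1746 to 3891. The 24 calls for the difference of effects became 96 with the replicate block, 36 after quantile normalization, 39 with a trended robust prior, 14 with centred arrays, 8 without values starting with 1 and 0 to 24 without 1 array. The labels do not say that same-numbered arrays belong together, and with 2 arrays a group the values cannot settle it: their deviations correlated at 0.263 to 0.593 in 5 of 6 pairs of groups and at 0.007 between the control prednisolone and BTG1 shRNA vehicle groups. The cause of these changes was not tested.

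Differences that turned sign were small and uncalled. After quantile normalization the difference of effects for KLF2 was 0.17 and KLF4 on the arrays labelled BTG1 shRNA stood at -0.06, or at -0.01 with centred arrays. Without 1 array, prednisolone on the arrays labelled BTG1 shRNA gave -0.21 to 0.07 for KLF10, -0.18 to 0.01 for KLF11, -0.18 to 0.32 for KLF3, -0.12 to 0.19 for KLF4, -0.02 to 0.11 for KLF5 and -0.01 to 0.35 for KLF9. On the control arrays it gave -0.94 to 0.12 for KLF11, -0.06 to 0.78 for KLF2 and -0.37 to 0.05 for KLF5. The shRNA contrast under vehicle gave -0.61 to 0.05 for KLF4, and the difference of effects -0.21 to 0.85 for KLF11 and -0.48 to 0.36 for KLF2. The mean of several rows per gene was not run, since every member has 1 row.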

Other observations

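The clusters most like other members were also recorded, with no test. KLF10 was most like USP36 (r = 0.976), ARRB1 (0.973) and POLR3E (0.956) over the 8 arrays, and these differed by -0.78, -1.56 and -0.62 with prednisolone on the control arrays. KLF13 was most like RETREG3 (0.975), CDK5R1 (0.964) and GARRE1 (0.951). KLF2 was most like TRIM9 (0.951), GAS2L1 (0.944) and OSCP1 (0.942). KLF11 with CYS1 was most like BRSK1, CEBPE and APLP1 (0.993, 0.993 and 0.992), and KLF5 was most like OGDHL (0.992), CTSF (0.991) and TUB (0.989).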
